A study of Mus musculus with 6 samples.

Results

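The genes described here are the chaperones, chaperonins and protein folding enzymes measured in the ovaries of newborn mice. They were chosen by annotation, as every probe whose annotation contained chaperonin, t-complex protein 1, heat shock, DnaJ, peptidylprolyl isomerase, FK506 binding, protein disulfide, prefoldin, calreticulin or calnexin. This gave 78 of the 8272 probes on the array and 45 annotation names, each represented by its brightest probe, and 43 of the 45 had enough values to be tested. Spotted 2-colour cDNA arrays measured ovary RNA of C57Bl/6J pups at 2 and at 4 days of age, labelled with Cy5, against ovary RNA of C57Bl/6J pups under 24 h old (day 0), labelled with Cy3. There were 3 arrays per age, each with an RNA sample of its own for the later day, and array 3 of both ages used the same day 0 sample. By the labels all 6 arrays had the same dye orientation, so a gene-specific dye effect and a change against day 0 cannot be told apart. The series text places the assembly of ovarian follicles in this strain at 48 h after birth and the first follicle growth shortly after. How many animals gave each RNA sample is not given in the sources used here.

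Chaperones bind proteins that are not yet folded and let them reach their shape without clumping. The cytosolic chaperonin is a ring of related subunits that closes around actin and tubulin, prefoldin hands it these substrates, and the mitochondrial chaperonin does similar work for imported proteins. Hsp70 and Hsp90 proteins work in cycles driven by ATP, in which DnaJ proteins load the Hsp70s with clients. In the endoplasmic reticulum, Hspa5, calreticulin and calnexin fold secreted proteins, and isomerases of the cyclophilin and FK506 binding families turn proline bonds. In the growing oocyte and its follicle this machinery serves secreted proteins such as those of the egg coat.

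Every value below is a log2 ratio of the later day over day 0 unless stated otherwise, so that a negative value means less RNA in the ovary of the later day relative to the other RNA. In whole ovaries, fewer cells of a type and less RNA per cell cannot be told apart. Which way the day 2 arrays run is open to doubt. On arrays 1 and 2 of that age the ratios went against each other over all probes (r = −0.68, 8272 probes) and over the folding genes (r = −0.77, 45 genes, which share the arrays and are not independent), although the labels give both the same dyes. Day 4 arrays 1 and 2 had r = 0.80 over the 34 folding genes with a value on both, and array 3 of the later and the earlier age, with a shared day 0 RNA, had r = 0.74 over 28 genes. As labelled and over all probes, day 2 array 1 had r = 0.27, 0.18 and 0.02 with day 4 arrays 1, 2 and 3. Day 2 array 2 had r = 0.11, 0.24 and 0.22 with them. Turning either array would make its r with these arrays negative. Whether either array is turned was not tested. For groups of genes, the signs and median of the fitted day 2 values are therefore also given with day 2 array 1 or array 2 turned in sign, while values of single genes, clones and arrays stand in the direction of the labels unless stated otherwise. The folding genes were bright, with a median of mean log2 intensity of 12.12, and the median standard deviation between the arrays of an age was 0.43 at day 2 and 0.24 at day 4.

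**Figure D1:**
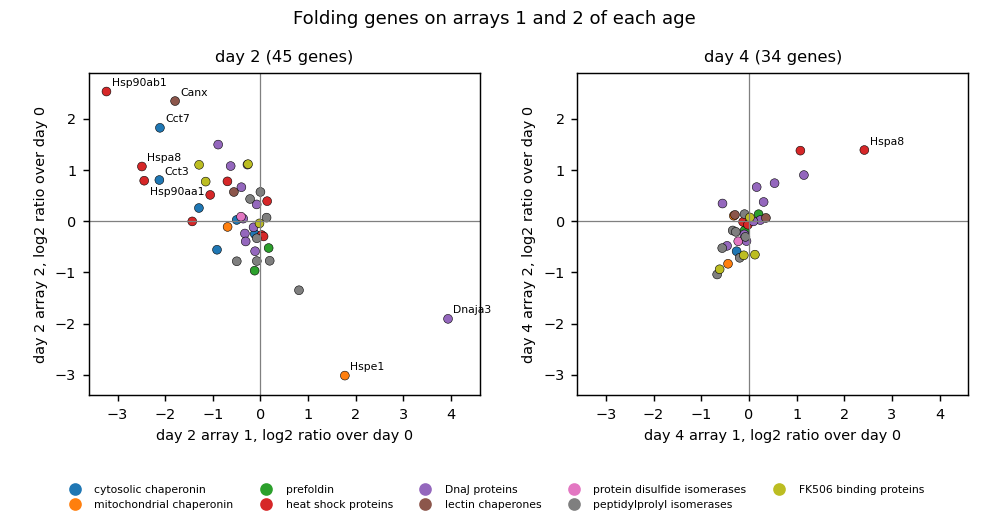
Log2 ratio over day 0 of each folding gene on array 2 (vertical axis) against array 1 (horizontal axis) of the same age, with day 2 on the left (45 genes, r = −0.77) and day 4 on the right (34 genes with both values, r = 0.80). Points are genes, coloured by role. At day 2 the genes farthest from 0, such as Hsp90ab1, Canx, Cct7, Hspe1 and Dnaja3, had opposite signs on the 2 arrays, whereas at day 4 Hspa8 was the farthest from 0 and was positive on both.

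The question at day 4 was which folding genes differ from day 0 once follicles have formed. No folding gene passed limma's test (adjusted p under 0.05 over 8135 probes), where 39 of all probes passed, a background of 0.479%. At an unadjusted p under 0.05, 4 folding genes were negative and 1 was positive, against 4.29% of all probes negative and 5% positive. The smallest adjusted p of a folding gene was 0.169. Of the 43 genes, 27 had a negative fitted value and 16 a positive one, where 50.2% of all probes were negative. Their median was −0.23, where that of all probes was −0.0014. On every day 4 array that had a value, 18 of the 43 were negative, beside 25.2% of all probes.

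Probe brightness ran along with these counts. At a mean log2 intensity of at least 12, 81.8% of the 22 tested folding genes had a negative day 4 value, and below it 42.9% of the 21. Among all 1205 tested probes of that brightness 45.2% were negative at day 4. Values were also missing unevenly. Day 4 array 1 lacked 11 folding genes, each with a mean log2 intensity of 12.92 or more. Day 4 array 3 lacked 17, all of them in areas marked by a deposited flag, whose meaning was read from its values. When each array was recentred on its own curve of ratio over intensity, the day 4 median was −0.22, with 30 of 43 genes negative.

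**Figure D2:**
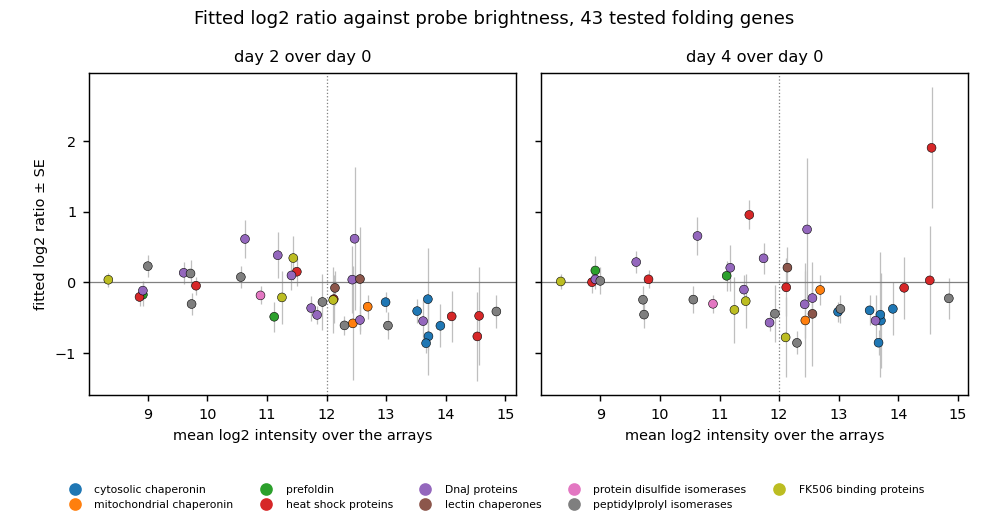
Fitted log2 ratio over day 0 (vertical axis, bars are SE) of the 43 tested folding genes against the mean log2 intensity of their probe over the arrays (horizontal axis), for day 2 on the left and day 4 on the right. The dotted line marks an intensity of 12. To its right 81.8% of the genes lie below 0 at day 4, and to its left 42.9%.

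Of the cytosolic chaperonin subunits, which each have a fixed place in the ring, 6 were measured (Tcp1, Cct3, Cct4, Cct5, Cct7 and Cct8). All 6 had negative fitted values at both ages, with medians of −0.51 at day 2 and −0.44 at day 4. By limma 0 of the 6 passed the test at either age. At an unadjusted p under 0.05 there were 1 at day 2 and 2 at day 4. Cct4 had values of −0.91, −0.56 and −1.11 on day 2 arrays 1, 2 and 3 and of −0.78 and −0.93 on day 4 arrays 2 and 3. It was negative on all 5 arrays with a value, with fitted values of −0.86 ± 0.15 (SE, n = 3) at day 2 and −0.85 ± 0.18 (n = 2) at day 4, limma adjusted p = 0.927 and 0.204. Tcp1, the alpha subunit, had −0.50, 0.03 and −0.36 on the day 2 arrays and −0.26, −0.59 and −0.40 on the day 4 arrays, so that 5 of its 6 values were below 0. Its fitted value at day 4 was −0.42 ± 0.14 (n = 3, limma adjusted p = 0.423). Cct5 had −0.12, −0.25 and −0.85 at day 2 and −0.41 and −0.38 on day 4 arrays 2 and 3, negative on all 5.

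The other 3 subunits split the day 2 arrays. Cct3 had −2.12, 0.81 and −0.97 on day 2 arrays 1, 2 and 3, and −0.77 and −0.31 on day 4 arrays 2 and 3. Cct7 had −2.11, 1.83 and −0.43 at day 2, and −0.43 and −0.48 on the same day 4 arrays. Cct8 had −1.29, 0.26 and −0.81 at day 2, and −0.43 and −0.32 at day 4. For all 3 genes array 2 was the 1 positive value of the 5. Turning the sign of day 2 array 1 left 2 of the 6 subunits negative at day 2, Cct4 and Cct5, and turning that of array 2 left all 6 negative. The day 2 median was then 0.15 or −0.64.

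Most subunits were spotted as several clones, and 13 of the 15 chaperonin probes had a mean log2 intensity of at least 12. All 13 had negative fitted values at day 4, from −0.85 to −0.37. On day 2 array 1 all 13 were below 0, on array 2 only 3 were, and on array 3 all 13 were. On day 4 array 1 there were 2 of the 13 with a value, both negative, and on day 4 arrays 2 and 3 all 13 were negative. The exception among the 15 was the dimmer Cct4 probe, which was positive on all 6 arrays, with 0.19, 0.53 and 1.36 at day 2 and 0.23, 0.60 and 1.08 at day 4. The 2 Cct4 probes thus had opposite signs on every array where both were measured, and which of them reads Cct4 was not tested.

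**Figure D3:**
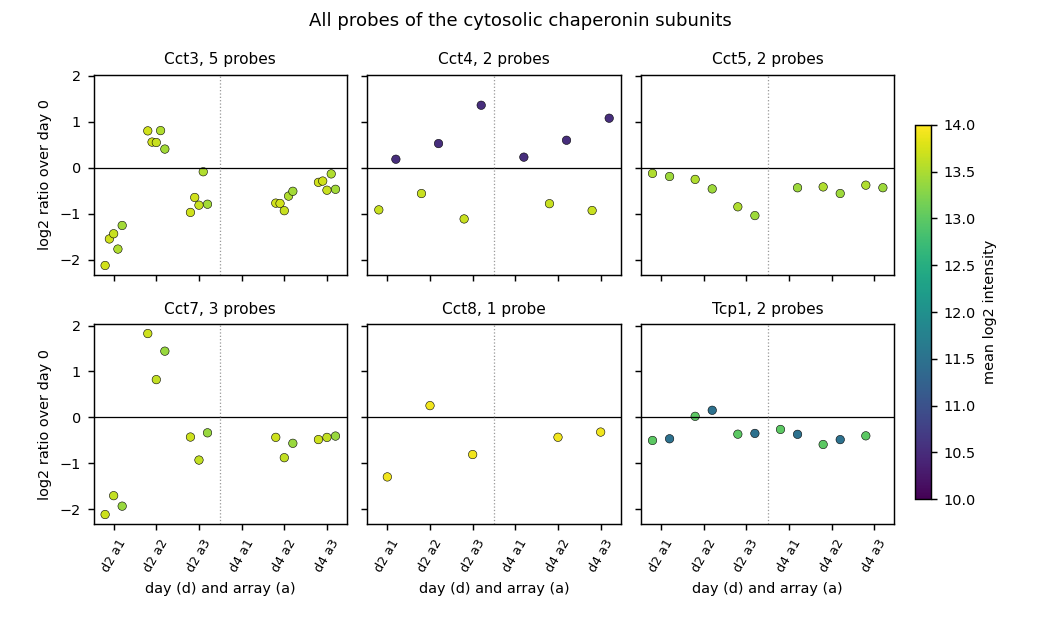
Log2 ratio over day 0 (vertical axis) of all 15 probes of the 6 cytosolic chaperonin subunits on each array (horizontal axis, d for day, a for array), 1 panel per subunit. Each point is 1 probe on 1 array, coloured by mean log2 intensity. The bright probes sit below 0 on day 2 arrays 1 and 3 and on the day 4 arrays. On day 2 array 2, 10 of the 13 with a mean log2 intensity of at least 12 are above 0. The dim Cct4 probe is above 0 on all 6 arrays.

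Prefoldin, which passes actin and tubulin to the chaperonin, was measured through Pfdn2 and a cDNA similar to prefoldin 4. By limma neither passed the test, and at an unadjusted p under 0.05 there were 0. Pfdn2 had −0.12, −0.97 and −0.37 at day 2, and −0.09, −0.18 and 0.55 at day 4, negative on 5 of 6 arrays. The prefoldin 4-like cDNA had 0.17, −0.52 and −0.17 at day 2, and 0.20 and 0.14 on day 4 arrays 1 and 2. Both had negative fitted values at day 2, also with array 1 turned, and positive ones with array 2 turned.

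The mitochondrial chaperonin consists of a barrel made of Hspd1 and a lid made of Hspe1. Hspd1 had −0.69, −0.11 and −0.23 on the day 2 arrays, and −0.32 and 0.11 on day 4 arrays 1 and 2. Its fitted values were −0.34 ± 0.17 (SE, n = 3) at day 2 and −0.11 ± 0.21 (n = 2) at day 4, and the other 2 Hspd1 probes were negative at both ages too. Hspe1 had 1.77, −3.02 and −0.49 at day 2, the widest split between day 2 arrays 1 and 2 after Dnaja3 and Hsp90ab1, and −0.44, −0.83 and −0.34 at day 4. Both fitted values of the pair were negative at day 2, while 1 was positive with either array turned. Neither passed limma's test at either age (adjusted p at day 4 = 0.917 for Hspd1 and 0.886 for Hspe1).

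Hspd1 and Hspe1 lie head to head on chromosome 1, with starts 216 bases apart, and their promoter is shown because the 2 parts of the chaperonin share it. The promoter windows, from RefSeq on GRCm38.p6, were the 250 bases before each gene's start, and 31 of the folding genes matched, with 39 windows. The heat shock element, the binding site of heat shock factors, was searched on both strands as the 13 letters GAA, any 2 bases, then TTC, any 2 bases, then GAA. It lay in 0.466% of the 32851 windows of all genes and in 4 of the 39 windows here, those of Hspd1, Hspe1 and, with 2 starts, Dnajb6. The Hspe1 window (chr1:55087898-55088147, plus strand) reads as follows, with capitals for the 2 overlapping matches, 1 on each strand, at positions −89 to −72 from the start.
Hspe1: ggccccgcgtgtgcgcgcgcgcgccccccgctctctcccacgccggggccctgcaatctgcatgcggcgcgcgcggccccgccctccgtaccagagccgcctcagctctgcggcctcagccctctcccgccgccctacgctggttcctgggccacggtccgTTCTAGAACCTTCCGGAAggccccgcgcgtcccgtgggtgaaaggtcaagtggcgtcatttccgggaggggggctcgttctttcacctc
The Hspd1 window (chr1:55087933-55088182, minus strand) shares 215 of these bases and both matches, while a second Hspd1 window at another start had none. With this shared stretch, the fitted values of the 2 genes were −0.34 and −0.58 at day 2 and −0.11 and −0.54 at day 4. A match is a run of letters and was not tested as a site.

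Among the Hsp70 and Hsp90 proteins and their partners, 9 genes were measured and 7 tested. By limma 0 passed, with 1 positive at an unadjusted p under 0.05 at day 4. Their fitted values at day 4 had a median of 0.03, with 5 of 7 positive, and at day 2 one of −0.24, with 6 of 7 negative. The day 2 sign of this group depended on array 1. With that array turned 5 of 7 were positive (median 0.22), and with array 2 turned 6 of 7 were negative (median −0.76). The gene farthest above day 0 at day 4 was Hspa8, the Hsc70 that cells make without stress. Its values were −2.49, 1.07 and 0.0005 on day 2 arrays 1, 2 and 3 and 2.42 and 1.39 on day 4 arrays 1 and 2. The 2.42 came from a single repeat on that array, so it has no spread between repeats. Both day 4 values lay above all 3 day 2 values as labelled, but with day 2 array 1 turned its 2.49 lay above both. The share of all probes with no overlap was not counted. The fitted 1.91 ± 0.85 (SE, n = 2) at day 4 did not pass (limma adjusted p = 0.611).

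A clone annotated only as heat shock protein had 0.14, 0.39 and −0.08 on the day 2 arrays and 1.08, 1.38 and 0.41 on the day 4 arrays. All 3 day 4 values lay above those of day 2, though the nearest were 0.41 and 0.39. The share of all probes with no overlap was not counted. The fitted value of this clone at day 4 was 0.96 ± 0.20 (n = 3), or 1.94-fold. Its adjusted p was the smallest of the folding genes, shared with Ppib (limma adjusted p = 0.169). A second clone with that annotation had −0.17, 1.27 and 0.45 at day 2 and 1.37, 1.74 and 0.68 at day 4, also positive on all 3 day 4 arrays (1.26 ± 0.31, adjusted p = 0.240). Its ages overlapped, with 1.27 on day 2 array 2 above 0.68 on day 4 array 3. The files name no gene for these clones.

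Hsp90aa1, the inducible cytosolic Hsp90, was spotted as 6 clones. Its brightest had −2.44, 0.79 and −0.64 at day 2 and 0.52 and −0.46 on day 4 arrays 2 and 3, with both signs at each age. The next 3 in brightness lay within −2.24 to −2.02 on day 2 array 1 and within 0.61 to 0.77 on day 2 array 2, and the 2 dimmer ones had −1.09 and −1.05, then 1.57 and 0.86. The 6 clones so gave the same picture of opposite signs on these 2 arrays. The brightest clones of Hsp90ab1, the constitutive Hsp90, and of Hspa4, an Hsp110 that exchanges the nucleotide of Hsp70s, had a value on 1 day 4 array each, −0.19 and −0.45, and were not tested. Their day 2 values were −3.23, 2.53 and −0.23 for Hsp90ab1 and −1.43, −0.0038 and −0.60 for Hspa4. Dimmer clones that were tested had fitted day 4 values of −0.26 and 0.32 for Hsp90ab1 and −0.45 ± 0.21 for Hspa4. On day 2 arrays 1 and 2 the first of these Hsp90ab1 clones had 0.56 and −0.84, the reverse of the brightest. The other had −1.165 and 2.03.

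Smaller values came from the partners. Ahsa1, which speeds the ATPase of Hsp90, had a fitted day 4 value of −0.07 ± 0.41, Hsbp1, a binding protein of heat shock factor 1, 0.0035 ± 0.15, and Hspb1, a small heat shock protein, 0.04 ± 0.13. The values of Hspb1 ranged from −0.30 to 0.22 over the 6 arrays, and those of Hsbp1 from −0.37 to 0.02 over 5.

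DnaJ proteins carry clients to Hsp70s, and 11 were measured. By limma 0 passed at either age, with 1 negative at an unadjusted p under 0.05 at day 4 and 2 at day 2. Of the 11 there were 6 positive at day 4 (median 0.04) and 6 at day 2 (median 0.04). At day 2 there were also 6 positive with array 1 turned (median 0.13), but 10 negative with array 2 turned (median −0.20). Dnajc8, a nuclear DnaJ protein linked to splicing, had −0.31, −0.40 and −0.67 at day 2 and −0.46, −0.48 and −0.76 at day 4. It was negative on all 6 arrays, with fitted values of −0.46 ± 0.12 at day 2 and −0.57 ± 0.12 at day 4 (SE, n = 3 each, limma adjusted p = 0.966 and 0.178). Dnaja2 was negative on all 5 arrays with a value, from −1.03 to −0.05. Dnaja1, which serves cytosolic Hsp70s, had −0.11, −0.59 and −0.94 at day 2, and 0.09 and −1.18 on day 4 arrays 2 and 3, and only day 4 array 2 was above 0.

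Other DnaJ genes stood above day 0 at day 4. An EST highly similar to Dnajc7 had −0.27, 1.11 and 1.01 at day 2 and 0.54, 0.74 and 0.69 at day 4. Its day 4 values lay close together (SD 0.11), with a fitted 0.66 ± 0.27 (n = 3, limma adjusted p = 0.552). With the 3 day 4 arrays fitted alone, the spread of day 2 does not enter. This EST was then the 1 of 43 folding genes past the test, beside 166 of 8135 probes, at a limma adjusted p of 0.0494. It was also 0.0494 with day 2 arrays 1 and 2 left out, and from 0.0901 to 0.999 under the rest of the alternatives. Dnajc7 itself, by its own clone, had a fitted value of −0.31 ± 0.47 at day 4, with −0.56, 0.35 and −0.72 on the 3 arrays. Dnaja3, the mitochondrial DnaJ protein, had 3.94, −1.91 and −0.17 at day 2 and 1.15, 0.90 and 0.20 at day 4, positive on all day 4 arrays, while its dimmer clone was negative on all 5 arrays with a value.

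Dnajb6, which keeps aggregating proteins soluble, was the 1 folding gene positive on every day 4 array with a value and negative on every day 2 array. It had −0.15, −0.12 and −0.82 on the day 2 arrays and 0.31 and 0.38 on day 4 arrays 1 and 2, and the ages did not overlap. Turning day 2 array 1 or 2 makes its value on that array positive. The share of all probes with this pattern was not counted. The dimmer Dnajb6 clone was positive on all 6 arrays, from 0.07 to 0.18. Dnajb1, the Hsp40 induced by heat, and Dnajb9, a DnaJ protein of the endoplasmic reticulum, had fitted values within −0.12 to 0.10 at both ages.

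**Figure D4:**
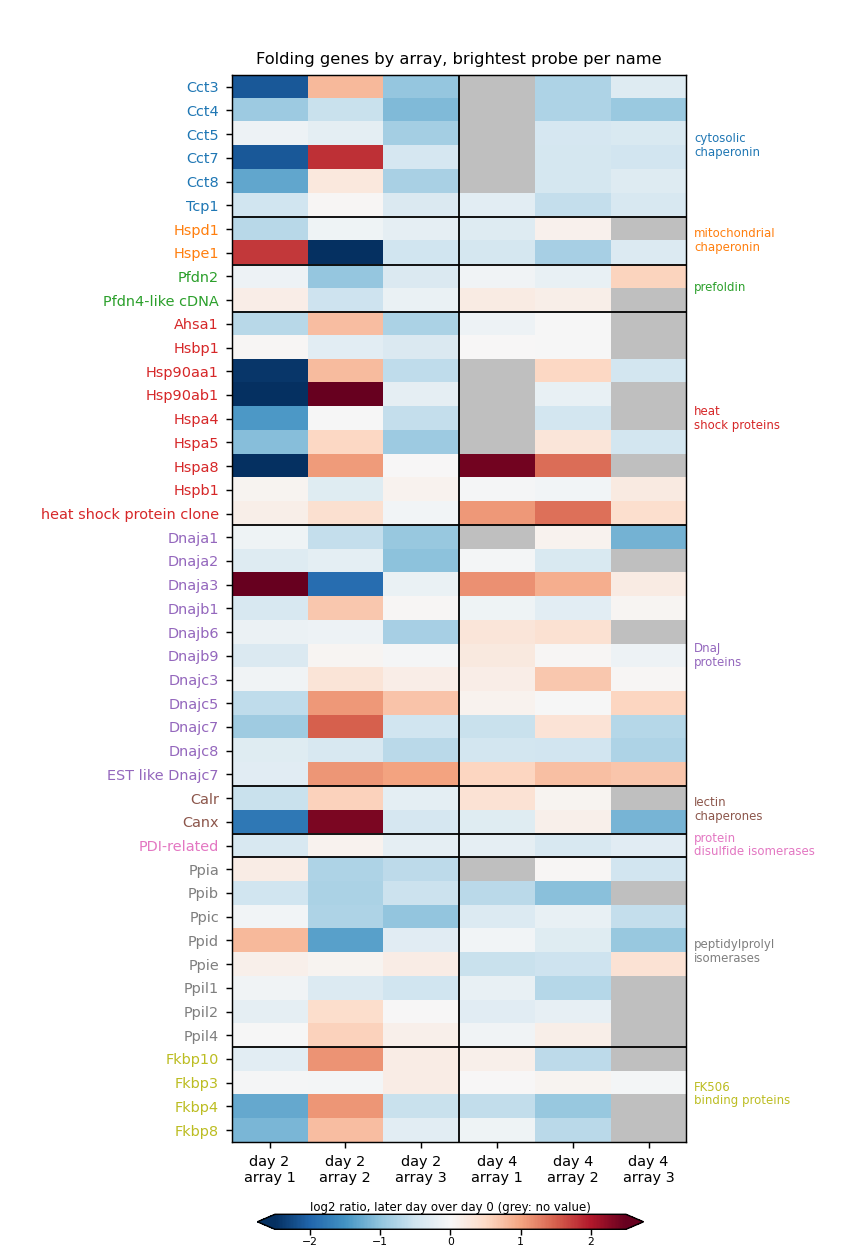
Log2 ratio over day 0 of the 45 folding genes (rows, brightest probe per name, grouped by role) on the 3 day 2 and the 3 day 4 arrays (columns). Red is above day 0, blue below, colours saturate at 2.5, and grey marks no value. Cct4, Cct5, Dnajc8 and Ppib are blue in every column with a value, and day 2 arrays 1 and 2 have opposite colours in many rows.

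In the endoplasmic reticulum the central chaperone is Hspa5 (BiP), an Hsp70, and calreticulin (Calr) and calnexin (Canx) bind glycoproteins by their sugars. The brightest Hspa5 clone had −1.06, 0.51 and −0.90 at day 2 and 0.31 and −0.46 on day 4 arrays 2 and 3, with both signs at each age. The dimmer Hspa5 clone had 1.13, −0.75 and −0.40 at day 2 and 0.58, 0.57 and −0.45 at day 4. Its signs on day 2 arrays 1 and 2 were thus the reverse. Calr had −0.56, 0.57 and −0.24 at day 2, and 0.36 and 0.06 on day 4 arrays 1 and 2. The brightest Canx clone had −1.79, 2.35 and −0.41 at day 2, and −0.29, 0.12 and −1.16 at day 4. On day 2 arrays 1 and 2 a dimmer Canx clone had the reverse signs, 0.77 and −0.89, and the dimmest had −0.44 and 0.10. Dnajc3, a partner of Hspa5 in the lumen, had −0.08, 0.33 and 0.16 at day 2, and 0.16, 0.67 and 0.04 at day 4. It was thus positive on 5 of 6 arrays, with a fitted 0.29 ± 0.16 at day 4 (SE, n = 3, limma adjusted p = 0.669). A protein disulfide isomerase-related clone, of the family that forms disulfide bonds, had −0.41, 0.09 and −0.23 at day 2 and −0.23, −0.39 and −0.29 at day 4, negative on 5 of 6 arrays (−0.30 ± 0.13 at day 4, adjusted p = 0.559). None of these 5 genes passed limma's test or an unadjusted p under 0.05 at either age.

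Hspa5, Calr, Canx and Dnajc3 carried the endoplasmic reticulum stress element, through which the unfolded protein response acts on its target genes. It was searched on both strands as CCAAT followed after 9 bases by CCACG. The element lay in 0.113% of the 32851 windows of all genes, and in those of Hspa5, Calr, Canx and Dnajc3 among the 31 genes matched here. These windows are shown because the 4 genes share the element, in capitals. They are chr2:34771840-34772089 (plus strand, element at −65 to −47 from the start) for Hspa5, chr8:84846932-84847181 (minus strand, at −162 to −144, on the opposite strand) for Calr, chr11:50325674-50325923 (minus strand, at −145 to −127) for Canx and chr14:118937682-118937931 (plus strand, at −105 to −87) for Dnajc3, all on GRCm38.p6.
Hspa5: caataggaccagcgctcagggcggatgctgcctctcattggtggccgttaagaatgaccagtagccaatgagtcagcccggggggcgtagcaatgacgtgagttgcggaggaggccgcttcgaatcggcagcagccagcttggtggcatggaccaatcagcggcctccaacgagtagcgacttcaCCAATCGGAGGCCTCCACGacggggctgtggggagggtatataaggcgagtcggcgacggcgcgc
Calr: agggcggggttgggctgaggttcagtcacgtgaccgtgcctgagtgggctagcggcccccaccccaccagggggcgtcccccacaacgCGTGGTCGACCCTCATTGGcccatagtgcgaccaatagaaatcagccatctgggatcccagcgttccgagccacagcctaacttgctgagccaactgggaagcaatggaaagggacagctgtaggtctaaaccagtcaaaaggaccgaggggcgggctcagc
Canx: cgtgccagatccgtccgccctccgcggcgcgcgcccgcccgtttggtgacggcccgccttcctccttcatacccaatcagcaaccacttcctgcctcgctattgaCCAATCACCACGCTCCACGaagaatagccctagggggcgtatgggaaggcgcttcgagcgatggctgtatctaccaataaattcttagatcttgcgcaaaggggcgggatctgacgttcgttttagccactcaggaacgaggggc
Dnajc3: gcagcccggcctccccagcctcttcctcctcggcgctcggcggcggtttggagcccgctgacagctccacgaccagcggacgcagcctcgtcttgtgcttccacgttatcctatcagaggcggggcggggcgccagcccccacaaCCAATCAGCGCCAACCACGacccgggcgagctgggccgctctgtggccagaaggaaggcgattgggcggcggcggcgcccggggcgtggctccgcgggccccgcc
The fitted day 2 values of Hspa5, Calr, Canx and Dnajc3 were −0.48, −0.08, 0.05 and 0.14, and their day 4 values −0.08, 0.21, −0.44 and 0.29. Neither element was found in the windows of Cct3, Cct5, Cct7, Cct8 and Tcp1, which says only that these letters were absent from those bases.

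Cyclophilins, peptidylprolyl isomerases named for the drug cyclosporin that binds several of them, included 8 genes, 7 of them negative at day 4 (median −0.31) and 5 at day 2 (median −0.29). With either day 2 array turned 5 of 8 were negative too, with a median of −0.26 for array 1 and −0.085 for array 2. By limma 0 passed at either age, with 1 negative at an unadjusted p under 0.05 at day 4 and 2 at day 2. Ppib, the cyclophilin of the endoplasmic reticulum that acts on collagen, had −0.50, −0.78 and −0.54 at day 2, and −0.67 and −1.04 on day 4 arrays 1 and 2. It was negative on all 5 arrays with a value, with fitted values of −0.61 ± 0.13 (n = 3) at day 2 and −0.85 ± 0.16 (n = 2) at day 4, a ratio of 0.553 to day 0 (limma adjusted p = 0.966 and 0.169). Ppic, another cyclophilin of the secretory pathway, was negative on all 6 arrays, from −0.98 to −0.08 at day 2 and from −0.60 to −0.18 at day 4. Ppil1, a cyclophilin of the spliceosome, was negative on all 5 arrays with a value, from −0.50 to −0.08 at day 2, with −0.20 and −0.72 at day 4.

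Ppia, the abundant cytosolic cyclophilin and the brightest probe of all folding genes, had 0.19, −0.77 and −0.65 at day 2, and 0.03 and −0.48 on day 4 arrays 2 and 3. Ppid, a cyclophilin that joins Hsp90 complexes, had 0.81, −1.35 and −0.29 at day 2 and −0.08, −0.31 and −0.94 at day 4, negative on all 3 day 4 arrays. Ppie was positive on all 3 day 2 arrays, from 0.07 to 0.18, and had −0.56, −0.53 and 0.35 at day 4. Ppil2 and Ppil4 had fitted day 4 values of −0.24 ± 0.19 and 0.02 ± 0.19.

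The FK506 binding proteins, the second isomerase family, numbered 4. By limma 0 passed at either age, and at an unadjusted p under 0.05 there were 0. At day 2 the fitted values of 2 were negative, against 0 of 4 with array 1 turned and 3 of 4 with array 2 turned. Fkbp4, a partner of Hsp90 in steroid receptor complexes, had −1.29, 1.10 and −0.56 at day 2, and −0.62 and −0.94 on day 4 arrays 1 and 2, with a fitted −0.78 ± 0.56 at day 4 (SE, n = 2). Its 2 dimmer clones had 0.01 ± 0.19 and −0.41 ± 0.24 at day 4. Fkbp8, an isomerase of the mitochondrial outer membrane, had −1.15, 0.77 and −0.26 at day 2, and −0.11 and −0.67 at day 4. Fkbp10, which acts on collagen in the endoplasmic reticulum, had −0.26, 1.11 and 0.18 at day 2, and 0.12 and −0.65 at day 4. Fkbp3, a nuclear member and the dimmest probe here, lay within −0.05 to 0.18 on all 6 arrays.

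**Figure D5:**
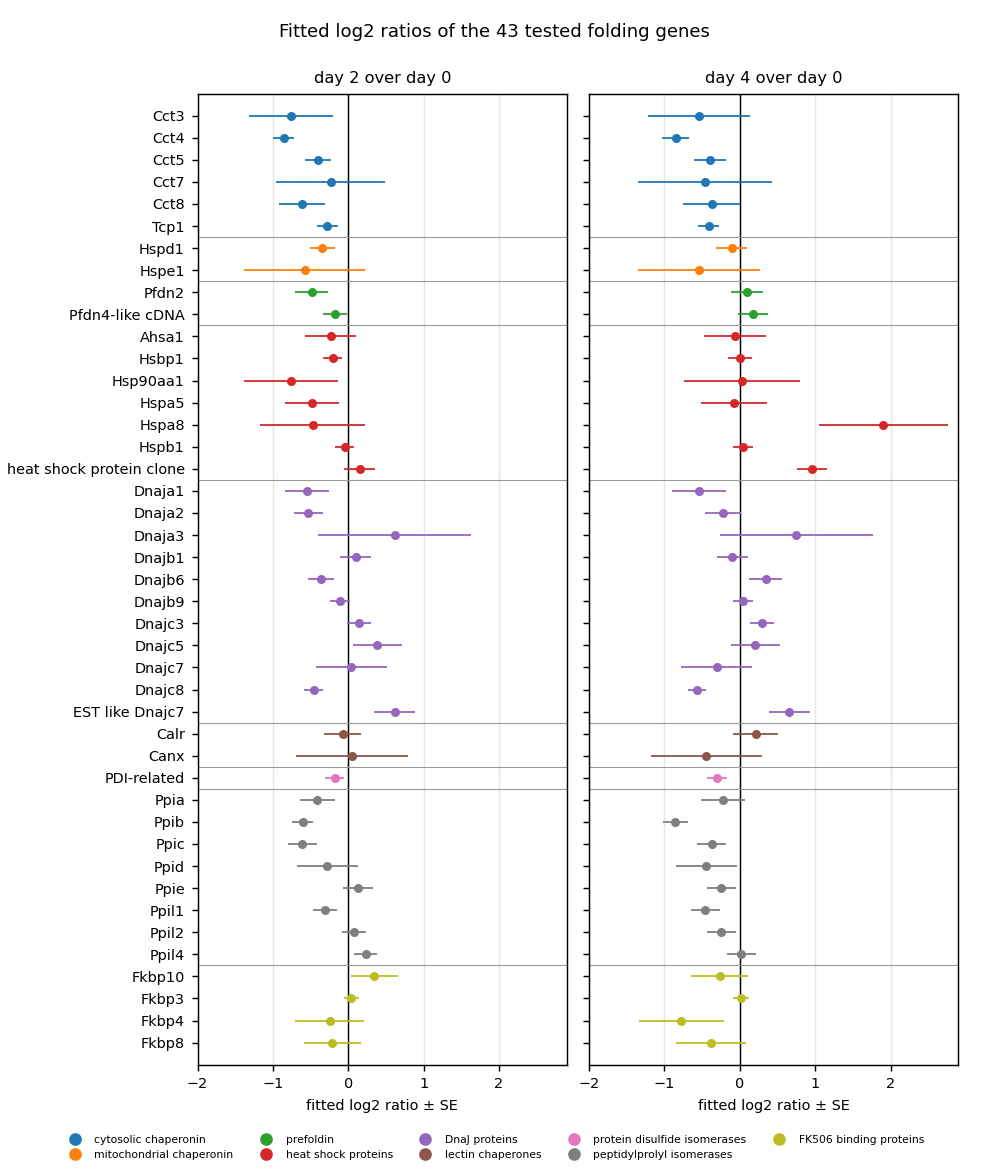
Fitted log2 ratio over day 0 (horizontal axis, bars are SE) of the 43 tested folding genes (rows, coloured by role) at day 2 on the left and day 4 on the right. All 6 chaperonin subunits lie below 0 in both panels, 27 of 43 genes lie below 0 at day 4 and 30 of 43 at day 2, and Hspa8 at day 4 has the value farthest from 0, 1.91 ± 0.85.

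At day 2, the age at which follicles assemble, 0 folding genes passed limma's test, as did 0 of all 8135 probes (0%). At an unadjusted p under 0.05, 5 folding genes were negative (Cct4, Ppib, Dnajc8, Ppic and Dnaja2) and 0 positive, against 1.12% of all probes negative and 1.72% positive. Turning array 1 gave 5 negative and 3 positive folding genes, with 1884 of all probes at this level, and turning array 2 gave 11 negative and 2 positive, with 1120, against 231 of all probes as labelled. Of the 43 genes 30 were negative, with a median of −0.24, where 47.6% of all probes were negative and their median was 0.01. On all 3 day 2 arrays 11 folding genes were negative, beside 7.33% of all probes. The number was 6 or 14 when array 1 or array 2 was turned, while the share of all probes was counted only as labelled. With the sign of array 1 turned, 17 genes were negative and 26 positive, and the median was 0.09. With that of array 2 turned, 34 were negative and 9 positive, and the median was −0.24. Array 3, whose r with arrays 1 and 2 over all probes was 0.02 and 0.23, had 34 of 45 folding genes negative, with a median of −0.37.

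Under both turns 12 of the 43 genes kept their sign, and the share of all probes that do so was not counted. The 10 negative ones were Cct4, Cct5, Dnaja1, Dnaja2, Dnajb6, Dnajc8, Hsbp1, Ppib, Ppic and Ppil1, and the 2 positive ones Fkbp3 and Ppie. Cct4 had day 2 values of −0.25 with array 1 turned and −0.49 with array 2 turned, Ppib had −0.28 and −0.09, and Dnajc8 had −0.25 and −0.20. On every array of both ages with a value, 7 folding genes were negative (Cct4, Cct5, Dnaja2, Dnajc8, Ppib, Ppic and Ppil1), beside 4.3% of all probes. This number was 2 or 8 when day 2 array 1 or array 2 was turned, while the 4.3% was counted only as labelled.

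Day 4 was set against day 2 through day 0, and a dye effect that all 6 arrays share drops out of this difference. By limma 0 folding genes passed, as did 0 of all probes (0%), and at an unadjusted p under 0.05 there were 0 lower and 1 higher, against 0.676% of all probes lower and 1.97% higher. With day 2 array 1 turned there were 1 lower and 2 higher, and with array 2 turned 0 lower and 4 higher, beside 931 and 721 of all probes against 215 as labelled. The 1 was the clone annotated only as heat shock protein, with a difference of 0.80 ± 0.29 (SE, n = 3 arrays each). Hspa8 had a difference of 2.38 ± 1.10 and Dnajb6 one of 0.70 ± 0.28. With the sign of day 2 array 1 turned these 3 differences were 0.90, 0.72 and 0.61, and with that of array 2 turned 1.07, 3.09 and 0.62, in the order heat shock protein clone, Hspa8 and Dnajb6. The dimmer Dnajb6 clone, with a value on all 6 arrays, had a difference of −0.05 ± 0.13. The differences of Cct4, Cct5 and Dnaja1 were 0.0072 ± 0.23, 0.011 ± 0.27 and 0.0053 ± 0.46. Over the 43 genes the median difference was 0.04, or −0.21 with array 1 turned and 0.15 with array 2 turned.

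Clones of a gene did not always point the same way. Of the 17 genes with 2 or more tested probes, 7 had probes with opposite fitted signs at day 4 and 7 at day 2, where turning array 1 or 2 gave 7 or 8. At day 4 these were Canx, Cct4, Dnaja3, Fkbp4, Hsp90aa1, Hsp90ab1 and Hspa5. The 5 Cct3, 2 Cct5, 3 Cct7, 2 Tcp1 and 3 Hspd1 probes had negative fitted values at both ages.

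Genes of the folding pathway outside the annotation rule were counted beside them. Of 16 that were found on the array 15 were tested. At day 4, 12 of the 15 were negative with a median of −0.23, beside 50.2% of all probes negative. At day 2, 10 were negative with a median of −0.16, beside 47.6% of all probes. Turning day 2 array 1 left 8 of 15 negative there (median −0.10), and turning array 2 left 7 (median 0.016). By limma 0 passed at either age, with 3 negative at an unadjusted p under 0.05 at day 4 and 0 at day 2, against 4.29% and 1.12% of all probes. The 3 were cochaperones of the Bag family, which release clients from Hsp70s. Bag2 had −0.66, −0.73 and −0.47 on the day 4 arrays (−0.62 ± 0.14, limma adjusted p = 0.202), Bag3 had −0.30, −0.39 and −0.18 (−0.29 ± 0.11) and Bag5 had −0.56 and −0.40 on arrays 1 and 2 (−0.48 ± 0.17). The 3 with positive fitted values at day 4 were Ptges3, an Hsp90 cochaperone (0.36 ± 0.49), Clpp, a mitochondrial protease (0.42 ± 0.64), and Bag4 (0.07 ± 0.14). Hsp90b1, the Hsp90 of the endoplasmic reticulum, was not tested and had −2.91, 0.41 and −0.64 at day 2 and 0.55 on day 4 array 2.

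Markers of cell types moved over the same arrays. All 5 oocyte markers measured had positive fitted values at day 4 (median 1.05, from 0.0069 for Sycp3 to 3.38 for Gdf9), and 1 of them, H1f8, passed limma's test (2.39 ± 0.12, n = 3, adjusted p = 0.00862). By fitted value all 5 erythroid markers were negative at day 4 (median −0.88), as were 2 of 3 endothelial (median −0.44) and all 3 epithelial ones (median −0.55), while all 5 of stroma and smooth muscle were positive (median 0.50). None of these other markers passed limma's test. At an unadjusted p under 0.05, 4 erythroid, 2 endothelial and 1 epithelial marker were negative and 2 stromal ones positive. Of all probes 4.29% were negative and 5% positive at this level. Over the day 4 arrays Sycp3, Hba-a1, Cdh5, Cnn1 and Mylk had both signs, with 0.67 and −1.64 for Hba-a1 on arrays 2 and 3. Granulosa and leukocyte markers were not matched by name, and a ratio gives no level of a marker. The part of these cell types in the values of the folding genes was not tested.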

How the data were processed

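Ovary RNA was measured on 6 spotted 2-colour arrays. Per the file headers, each array file that the authors deposited holds 4 log2 ratios per probe (later day in Cy5 over day 0 in Cy3), the average of these, a mean log2 intensity and flags with no definition. Per the submitters' processing notes the authors used R 1.7.1, while how background and normalization were handled is not given in the sources used here. In the deposited value table stood the same mean log2 ratios.

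Of the 4 repeats those with a value were averaged, with no further normalization. On day 4 array 1 the values of Hspa8, Hspd1 and Ppic came from a single repeat each. A probe was tested with values on at least 2 arrays of each age (8135 of 8272), so that precision is limited by the number of arrays. The labels call the samples biological replicates without naming animals, so the p-values measure the spread between these samples. One mean per age was fitted to all 6 arrays with limma 3.58.1 in R 4.3.3, and 2-sided p-values were adjusted after Benjamini and Hochberg across the tested probes, with 0.05 as the threshold. The SEs come from this fit, which pools the spread of both ages, and n is how many arrays of that age had a value. The code was tested on simulated data.

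Symbols were assigned by hand from the annotation names, and the clones were not placed on a genome. The 32 named genes were, per comparison, up to 5 in each direction with the smallest p-values and 1 sign on all arrays, all measured chaperonin subunits, and the 3 brightest of each role, and other genes were named after their values were seen. The members and lists were chosen with earlier results of these data known. Promoter windows came from RefSeq tables on GRCm38.p6. Alternatives covered normalization, filters, flags, turned signs, variance model, probe choice and left-out arrays. Number 3 marks the arrays that share a day 0 sample, but numbers 1 and 2 mark no shared sample, so replicate numbers were not taken as pairs.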

Additional observations from a re-analysis of the deposited data

Results flagged for a closer look

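Dnajb6 stood out because every day 4 array with a value was above day 0 and every day 2 array was below it. With day 2 array 1 or 2 turned in sign, that array was above day 0 too. The share of all probes with this pattern was not counted. The difference of day 4 and day 2 was 0.70 on the log2 scale (SE 0.28, 2 day 4 arrays and 3 day 2 arrays), and limma's test of that difference did not pass (adjusted p = 1.00, and 0.509 to 1.00 over its alternatives). It was 0.61 or 0.62 when the sign of day 2 array 1 or 2 was turned, and 0.47 with the arrays numbered 3 of both ages left out. The dimmer Dnajb6 clone, positive on every array of both ages, had a difference of −0.05 (SE 0.13). Groups of 3 arrays were not searched for outlying samples.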

How the results depend on the processing

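No folding gene passed limma's test in any comparison under the alternatives run, except that 1 passed at day 4, the EST similar to Dnajc7, with the day 4 arrays fitted alone or with day 2 arrays 1 and 2 left out. Both settings take the day 2 spread out of the fit. Leaving out each array in turn gave 0 in all 3 comparisons. The day 4 median of −0.23 was −0.10 over the 19 folding genes with values on all 6 arrays and −0.23 to −0.024 without single arrays, with −0.024 without day 4 array 2. The day 2 median of −0.24 was 0.038 over the probes with values on all 6 arrays, 0.089 when the sign of day 2 array 1 was turned, and −0.40 to 0.038 without single arrays, with −0.40 without day 2 array 2, −0.08 without day 2 array 1 and 0.038 without day 4 array 2, which leaves 19 genes. The median difference of day 4 and day 2, 0.04, ran from −0.05 to 0.17 without single arrays. The number of all probes called at day 4, 39, ran from 0 (without any 1 day 4 array, without array 3 of both ages, and with day 2 array 2 turned) to 166 (day 4 arrays alone), with 6 under trended and robust variances and 96 after scaling between arrays. With the replicate number as a block, 0 folding genes passed at day 4 against day 2, and 224 of all probes against 215 had an unadjusted p under 0.05. Deviations from the age means had r = 0.37, 0.05 and 0.51 between same-numbered arrays, and −0.42 to 0.09 between the others. The numbers were not taken as pairs because by the labels only number 3 marks a shared sample. The main fit did not model that shared day 0 sample. The loess recentring and the joint omission of day 2 arrays 1 and 2 were chosen after seeing the data. The causes of these shifts were not tested. Missing values on day 4 arrays 1 and 3 and the single dye orientation that the labels give limit these values.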
